A study of Arabidopsis thaliana with 15 samples.

Results

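The ABC transporter family was examined in Arabidopsis thaliana rosettes as the rows of an RNA-seq count table whose gene name is ABC, 1 letter and a number. The rule found 107 of the 32833 genes of the table. The study asked which transcripts respond when the transcription factor NAC052 is misexpressed in the cells around the leaf veins or is mutated. Complete rosettes of 28-day-old plants of 5 lines were sequenced, with 3 biological replicates each. Every line carries, in the Col-0 accession, a reporter in which the Flaveria trinervia GLDPA promoter drives a green fluorescent protein with a chloroplast transit peptide in the bundle sheath and vasculature, and this reporter line alone is the reference line. The activation-tagged line has in addition the Flaveria trinervia GLDT promoter, active in the same cells, inserted in the coding region of NAC052. The CRISPR/Cas line has a nucleotide insertion in NAC052. The GLDT::NAC052 line and the GLDT::5'truncatedNAC052 line carry a randomly inserted transgene with the whole or the 5'-shortened coding region of NAC052 behind the GLDT promoter, and their own NAC052 gene is still present. Each construct or mutation is represented by 1 line, and the number of plants pooled in a sample is not given in the sources used here.

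ABC (ATP-binding cassette) transporters use ATP, bound by a conserved nucleotide-binding domain, to move substrates across membranes. Plants have far more of them than animals, and they carry waxes and cutin monomers to the leaf surface, auxin, abscisic acid and cytokinin between cells, glutathione conjugates and metal chelates into the vacuole, and lipids into plastids and peroxisomes. The letter gives the subfamily. ABCB proteins include auxin and malate carriers, ABCC proteins are mostly vacuolar, and ABCG proteins serve the cuticle, suberin, pollen wall, hormones and defence. ABCE and ABCF proteins lack membrane spans and act with ribosomes, and ABCI groups proteins of bacterial type, many of them in plastids and mitochondria.

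Of the 107 members, 98 had at least 1 count over the 15 libraries and 9 had none (ABCA3, ABCA5, ABCA11, ABCA12, ABCB18, ABCB22, ABCG9, ABCG17 and ABCG28). A filter on low counts, set at 10 counts for a library of median size and required in 3 or more libraries, kept 81 members for testing and left out 26. In at least 1 line 69 members reached a mean of 1 CPM (counts per 1e6 of scaled library size). The ABCC subfamily was the one with every member tested, 11 of 11, and 10 of them reached 1 CPM. ABCI had 10 of 11 members tested, ABCF 4 of 5, ABCG 30 of 38, ABCB 18 of 27, ABCE 2 of 3 and ABCA 6 of 12. No row of the table bears an ABCD name. A further 20 ABC genes are listed in the table under another name and lie outside the rule.

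**Figure D1:**
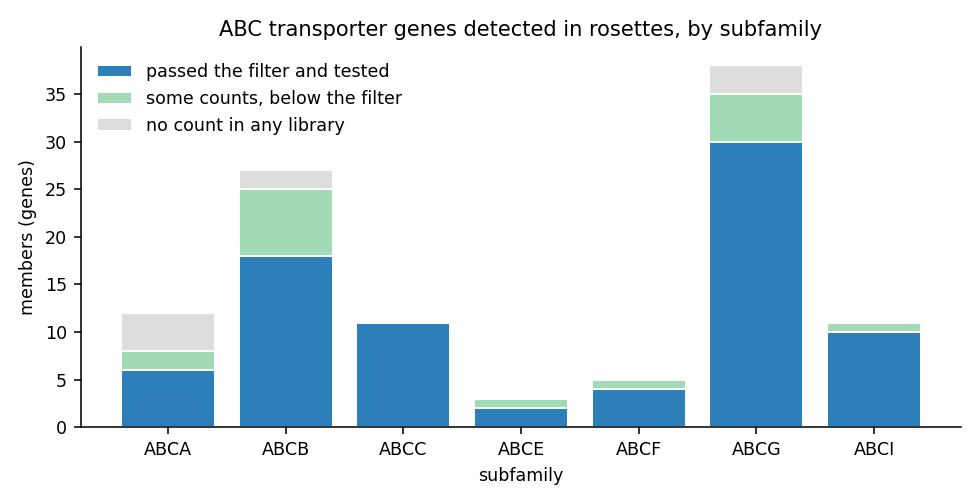
Number of ABC members (y axis) by subfamily (x axis). Bars are stacked by whether members passed the filter and were tested, had counts but did not pass, or had no count. ABCA had the fewest tested members relative to its size, 6 of 12, and ABCC had all 11 tested.

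The libraries held 28074380 to 38579309 counts, and ABC members took 0.323 to 0.411% of them. NAC052 itself had 19.7, 20.6 and 19.5 CPM in the 3 reference libraries, 64.0, 61.7 and 80.0 in the activation-tagged, 22.2, 20.1 and 22.6 in the CRISPR/Cas, 25, 66.0 and 52.5 in the GLDT::5'truncatedNAC052 and 279.9, 27.2 and 165 in the GLDT::NAC052 libraries, so both transgenic lines held a library near the reference level. The column names place the 6 reference and activation-tagged libraries on sequencing lane 1 and the other 9 on lane 8, so that lane and line cannot be told apart when a lane 8 line is set against the reference. The 3 comparisons among the lane 8 lines lie within a lane. Mesophyll markers were the most abundant list in every library (summed CPM 43517 to 50305 in the CRISPR/Cas and 58149 to 62834 in the reference line), while flower and root lists stayed at or below 4.74. In the CRISPR/Cas line the 3 xylem markers summed to 20.5 to 34.3 CPM against 87.2 to 100.2 in the reference. The 4 rows matched by name to senescence markers summed to 49.5 to 69.1 CPM there against 4.80 to 8.62. Most of that difference was SAG13 alone, with means of 56.6 against 2.03 CPM, and SAG12 was at 0 counts in all libraries. In whole rosettes, fewer cells of a type and less RNA per cell cannot be told apart.

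Levels between genes were compared per length, as counts per exon kilobase scaled to the same total in every library. On this scale ABCG36 (PEN3), which secretes defence compounds at the plasma membrane, was the most abundant member, with 321 ± 47.1 (SD, n = 3) in the reference line and a range of 195 to 417 over the 15 libraries. In activation-tagged replicate 3 ABCF5 was higher. ABCG36 made up 18.9% of the summed per-length level of the family. With ABCF5, ABCG12, ABCI8 and ABCI6 it made up 43.2%, and the 20 highest members 77.6%. ABCF5 had 151 ± 13.2 in the reference line. ABCG12, a wax exporter of the epidermis, had 82.1 ± 2.77. ABCI8, the plastid SufB scaffold of iron-sulfur cluster assembly, had 74.5 ± 17.4, and its ATPase partner ABCI6 (SufC) had 56.1 ± 4.61. The remaining subfamilies were led by ABCE2, a ribosome recycling factor, with 50.1 ± 5.63, the auxin exporter ABCB19 with 44.9 ± 5.19, ABCC14 with 38.6 ± 9.57 and ABCA2 with 16.3 ± 0.906. By subfamily, ABCG took 37.5% of the family's per-length level, ABCB 16.7%, ABCF and ABCI 16.3% each, ABCC 7.41%, ABCE 3.5% and ABCA 2.23%.

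**Figure D2:**
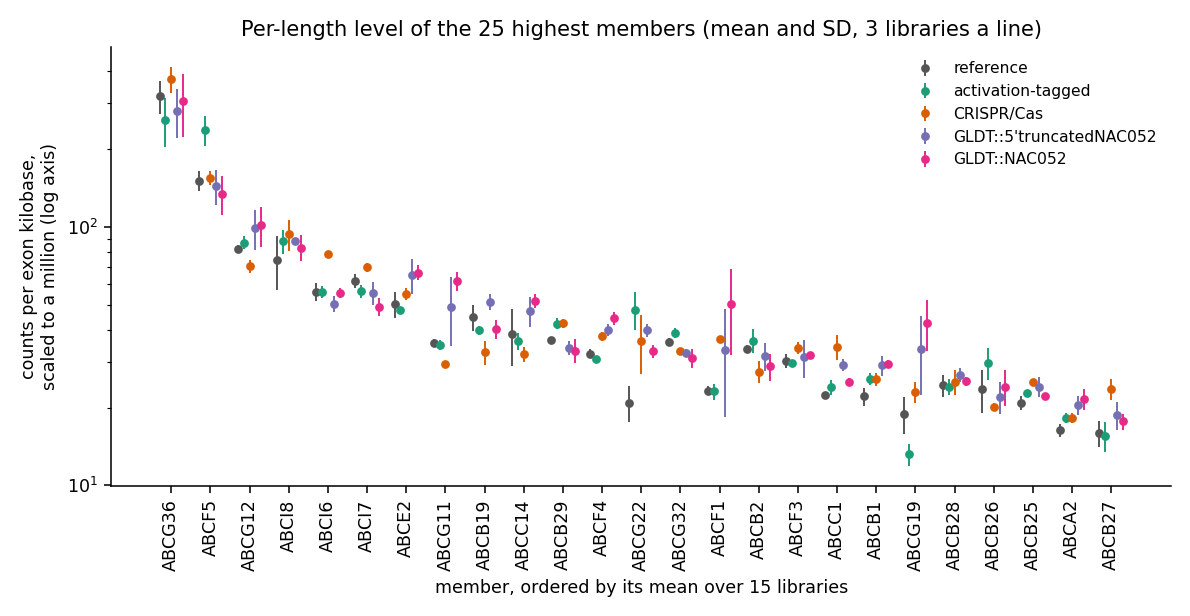
Per-length level (counts per exon kilobase scaled to the same total, log axis) of the 25 most abundant members. Points are line means with SD (n = 3), coloured by line, and the lines overlap for most members. In single libraries, which are not drawn, ABCG36 was above all others in 14 of the 15, ABCF5 being higher in activation-tagged replicate 3.

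Each line was compared with the reference line with edgeR's quasi-likelihood test over all 19663 genes that passed the filter, and a gene was called where the fold change passed 2 or 0.5 and the Benjamini-Hochberg adjusted p was under 0.05. Few of the 81 tested members were called. In the activation-tagged line 2 members were called, 1 higher and 1 lower, where 1.14% of all tested genes were called, 0.295% higher and 0.849% lower. There were 3 higher and 2 lower in the CRISPR/Cas line, against a background of 6.73%, 3.30% higher and 3.44% lower. With the shortened transgene, 1 was higher and 1 lower, against 0.941%, 0.620% higher and 0.320% lower. With the whole transgene (GLDT::NAC052) 5 were higher and none lower, against 8.21% in either direction, 5.36% higher and 2.85% lower. For the 0 lower calls, 10 members were lower at an adjusted p under 0.05 with folds inside the limit (36 members in either direction at an unadjusted p under 0.05), and DESeq2 and limma voom also gave 0 with the limit. As shares of the 81 members these are 2.47, 6.17, 2.47 and 6.17%, near the background of each comparison. The 4 comparisons share the 3 reference libraries. The median log2 fold change of the members was 0.01, -0.04, 0.00 and 0.09 in the 4 lines in that order, beside -0.01, 0.00, 0.01 and 0.00 over all tested genes. In all, 12 members were called in at least 1 line, and 2 of them, ABCG1 and ABCB14, in 2 lines. Line means of 53 of the 81 tested members lay within 2 times of each other, and those of 27 within 1.5 times. Without 1 library the GLDT::5'truncatedNAC052 count was 1 (reference replicate 1) or 4 (GLDT::5'truncatedNAC052 replicate 2), and the GLDT::NAC052 count was 8 (reference replicate 3 or GLDT::NAC052 replicate 1). Where nothing else is said, a member's call named in the following paragraphs held under every alternative normalization, test and filter in which that member was tested. It also held without each library in turn. Calls of genes outside the family come from the edgeR fit of all 15 libraries and were not checked under the alternatives. The sources do not say whether replicates were grown separately, so the p-values measure the spread between these libraries.

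**Figure D3:**
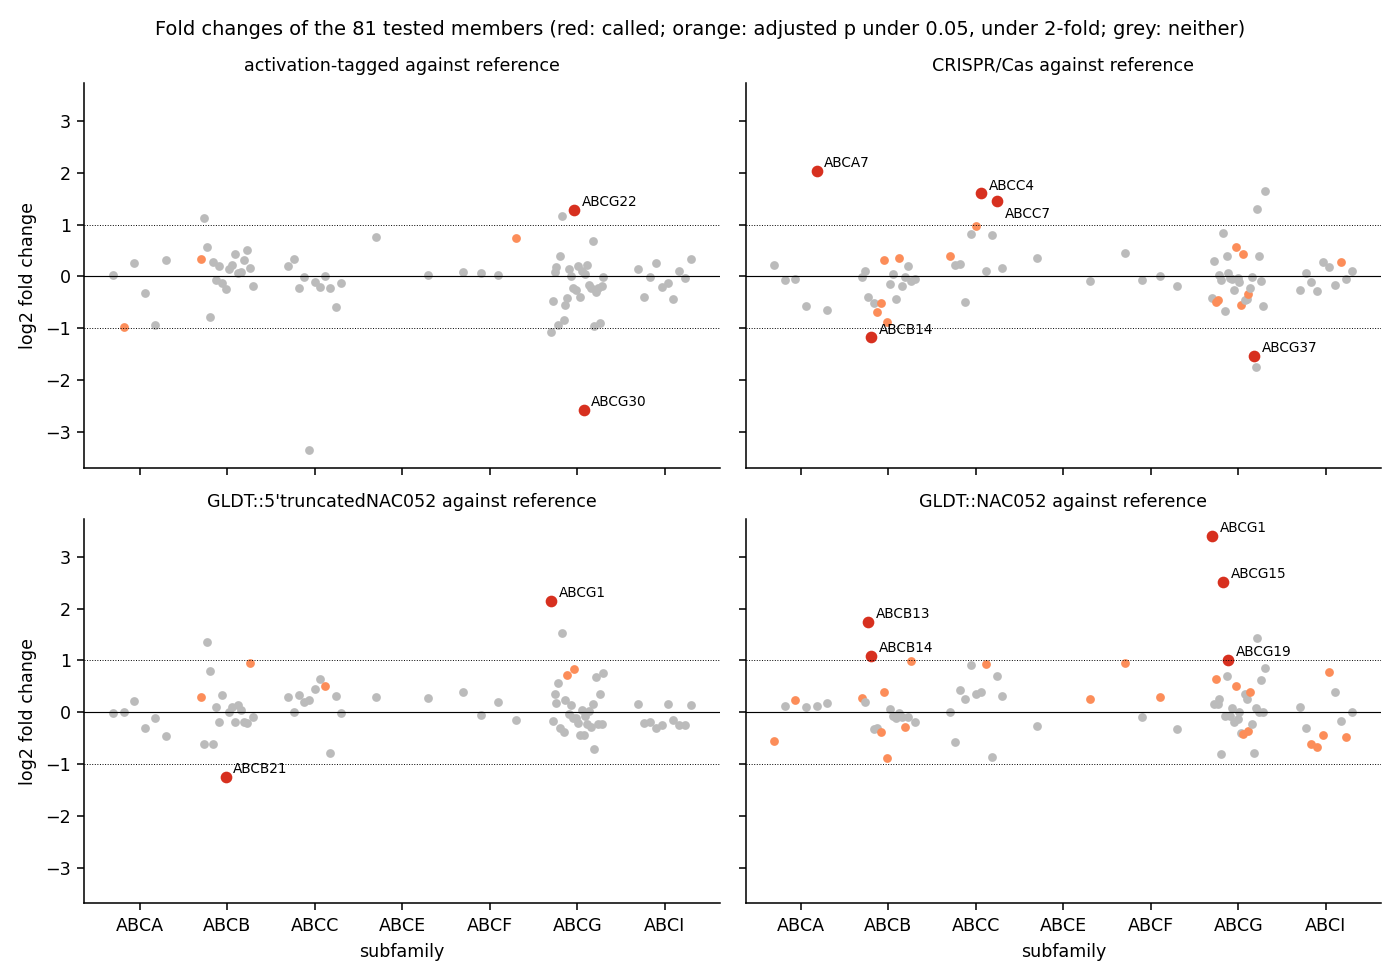
Log2 fold change of the 81 tested members against the reference line (y axis) by subfamily (x axis), with 1 panel for each of the 4 lines. Each point is 1 member, red where called with the 2-fold limit, orange where the adjusted p was under 0.05 at a smaller fold, grey otherwise. Called members number 2 with activation tagging, 5 with the CRISPR/Cas mutation, 2 with the shortened transgene and 5 with the whole transgene. The medians lie within 0.1 of 0.

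ABCG1 had the highest fold change of all tested members in both lines with a GLDT transgene. It exports fatty acid derivatives and, with ABCG16, is required for the pollen wall (AT2G39350, chr2:16430085-16432751 on the minus strand in TAIR10.1). Its level was 1.58, 2.18 and 2.72 CPM in the reference libraries and 8.94, 6.11 and 13.4 in the GLDT::5'truncatedNAC052 libraries. In the GLDT::NAC052 libraries it was 19.2, 15.9 and 32.8 CPM. Every library of both transgenic lines lay above all reference libraries. The GLDT::NAC052 line was 10.5 times the reference (log2 fold change 3.39, SE 0.36, edgeR adjusted p = 4.02e-05) and the GLDT::5'truncatedNAC052 line 4.41 times (log2 fold change 2.14, SE 0.35, edgeR adjusted p = 0.00612). The whole coding region gave a higher level than the shortened one (log2 fold change 1.25, SE 0.32, edgeR adjusted p = 0.0286), with no overlap of the libraries. That last call ended without GLDT::5'truncatedNAC052 replicate 1 (1.21, adjusted p = 0.0986), without its replicate 2 (1.02, adjusted p = 0.123), without GLDT::NAC052 replicate 3 (0.90, adjusted p = 0.128) and in a fit of only these 6 libraries, its adjusted p over all alternatives being 0.00274 to 0.148. The CRISPR/Cas libraries had 1.15, 1.53 and 2.16 CPM and overlapped the reference (log2 fold change -0.41, SE 0.37, edgeR adjusted p = 0.444). The activation-tagged libraries had 1.33, 0.786 and 0.939 CPM, all below the reference libraries (log2 fold change -1.07, SE 0.40, edgeR adjusted p = 0.164). ABCG1 was 1 of the genes the study listed from these same libraries, so its direction here is not independent evidence. ABCG1 shares 24 bases with SAC3A on the other strand, whose log2 fold change in the GLDT::NAC052 line was 0.24. In GLDT::NAC052 replicate 2, the library of that line with the lowest NAC052 level, ABCG1 was at 15.9 CPM, above all reference libraries. Of the 4 tapetum and pollen wall markers, A9 and MS1 (listed as MS1_2) were at 0 counts in all libraries and AMS had at most 21 in a library. The row named MS2, with up to 4004 counts, carries the identifier of a methionine synthase in TAIR10.1 and does not mark these cells.

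The promoters of the 4 members that were higher in the GLDT::NAC052 line at tested levels with more than a few counts are printed because NAC proteins bind a CACG core. They are the 250 bases before the annotated start of each gene, 5′ to 3′, from the TAIR10.1 genome sequence, with matches on either strand to TTGAC (the W-box core), ACGTG (the abscisic acid response element core) and CACG in capitals. ACGTG and CACG overlap where a CACGTG stands.
ABCG1: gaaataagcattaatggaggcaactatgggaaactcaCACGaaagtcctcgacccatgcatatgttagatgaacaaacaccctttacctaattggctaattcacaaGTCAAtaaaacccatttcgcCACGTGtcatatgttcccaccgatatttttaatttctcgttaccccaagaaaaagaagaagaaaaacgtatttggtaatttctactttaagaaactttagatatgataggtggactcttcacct
ABCB13: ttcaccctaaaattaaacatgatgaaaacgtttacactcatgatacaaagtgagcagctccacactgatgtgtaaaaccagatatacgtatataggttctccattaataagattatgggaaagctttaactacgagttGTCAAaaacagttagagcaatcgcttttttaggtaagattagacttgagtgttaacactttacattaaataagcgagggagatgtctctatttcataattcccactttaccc
ABCB14: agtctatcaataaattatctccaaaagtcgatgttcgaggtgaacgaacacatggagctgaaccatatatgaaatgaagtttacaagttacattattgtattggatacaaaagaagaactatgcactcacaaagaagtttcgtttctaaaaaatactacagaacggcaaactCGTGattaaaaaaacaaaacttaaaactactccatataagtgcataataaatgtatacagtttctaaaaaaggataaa
ABCG19: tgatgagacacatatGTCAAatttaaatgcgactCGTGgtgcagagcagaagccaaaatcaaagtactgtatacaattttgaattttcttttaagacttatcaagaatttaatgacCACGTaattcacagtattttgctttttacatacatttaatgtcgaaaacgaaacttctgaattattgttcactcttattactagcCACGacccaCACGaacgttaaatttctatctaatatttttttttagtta
These windows are chr2:16432752-16433001, minus strand for ABCG1, chr1:9738237-9738486, minus strand for ABCB13, chr1:9762961-9763210, plus strand for ABCB14 and chr3:20436454-20436703, minus strand for ABCG19. The CACG core matched 3 times in ABCG1, 4 times in ABCG19, once in ABCB14 and not in ABCB13. Over windows from 250 bases before to 50 after the start, CACG was present in 57.9% of the 107 members and 52.6% of all 32546 promoters, ACGTG in 29.0 and 25.8%, and TTGAC in 54.2 and 49.9%. A palindrome of CTTG and CAAG with 5 bases between them was present in 4 members (ABCB11, ABCG26, ABCG28 and ABCI6), 3.74%, and in 284 of all promoters, 0.873%. Of these, ABCB11 and ABCI6 were tested, and neither was called with the fold limit against the reference. A match describes letters only and was not tested as a binding site.

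The closest relatives of ABCG1 were not called. They are ABCG16 and the suberin transporters ABCG2, ABCG6 and ABCG20. ABCG2 had 6.52 ± 0.761 CPM (SD, n = 3) in the reference and 6.17 ± 1.26 in the GLDT::NAC052 line (log2 fold change -0.08, SE 0.18, edgeR adjusted p = 0.776). ABCG20 had 7.43 ± 0.232 and 7.89 ± 0.814 CPM (log2 fold change 0.09, SE 0.11, edgeR adjusted p = 0.597). ABCG16 had 2.19 ± 0.371 and 2.08 ± 0.816 CPM (log2 fold change -0.07, SE 0.27, edgeR adjusted p = 0.867). None of these was called in any of the 7 comparisons, with or without the fold limit. Relative to the reference, the largest log2 fold change among the 3 was -0.84 for ABCG16 in the activation-tagged line, with an edgeR adjusted p of 0.125. ABCG6 had 2 counts in all 15 libraries and was not tested.

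ABCB14 moved in opposite directions in the mutant and in the transgenic line. The protein imports malate into guard cells and modulates stomatal opening (AT1G28010, chr1:9763211-9768113 on the plus strand). The reference libraries had 16.4, 16.9 and 20.3 CPM and the CRISPR/Cas libraries 9.52, 6.13 and 8.04. The GLDT::NAC052 libraries had 35.0, 37.6 and 41.0 CPM and the GLDT::5'truncatedNAC052 libraries 29.7, 18.8 and 44.9. All CRISPR/Cas libraries lay below and all GLDT::NAC052 libraries above the reference, while the GLDT::5'truncatedNAC052 libraries overlapped it. ABCB14 fell in the CRISPR/Cas line (log2 fold change -1.18, SE 0.25, edgeR adjusted p = 0.00499) and rose in the GLDT::NAC052 line (log2 fold change 1.09, SE 0.24, edgeR adjusted p = 0.00408). The first of these missed the fold limit with library totals as the scaling (-0.9972, adjusted p = 0.0149, with 6.14e-05 to 0.026 over all alternatives). The direct contrast of the CRISPR/Cas with the GLDT::NAC052 line, which uses no reference library, gave the full span (log2 fold change -2.26, SE 0.26, edgeR adjusted p = 1.60e-05). The activation-tagged libraries had 12.3, 9.51 and 9.16 CPM, all below the reference (log2 fold change -0.79, SE 0.25, edgeR adjusted p = 0.103). The 3 guard cell markers found in the table summed to 40.6 to 43.4 CPM in the reference, 28.9 to 34.6 in the CRISPR/Cas and 32.9 to 49.0 in the GLDT::NAC052 libraries, and their part in this result was not tested.

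ABCB13, a related gene on the same chromosome (AT1G27940, chr1:9733430-9738236 on the minus strand), was also higher in the GLDT::NAC052 line, at a much lower level. It had 0.222, 0.311 and 0.13 CPM in the reference libraries, 0.112, 0.258 and 0.126 in the CRISPR/Cas, 0.285, 0.354 and 0.352 in the activation-tagged, 0.403, 0.753 and 0.570 in the GLDT::5'truncatedNAC052 and 0.604, 1.03 and 0.609 in the GLDT::NAC052 libraries. The libraries of both transgenic lines lay above all reference libraries, while the activation-tagged and the CRISPR/Cas libraries overlapped them. ABCB13 rose in the GLDT::NAC052 line (log2 fold change 1.74, SE 0.44, edgeR adjusted p = 0.00738), on 24 to 40 counts per library against 4 to 10. The 2 genes share 21 windows of 100 identical exon bases, so reads of the abundant ABCB14 that fall there cannot be assigned. These are 0.633% of the windows of ABCB14, and how large a part of ABCB13's counts they make up was not tested. Among the lane 8 lines both were lower in the CRISPR/Cas than in the GLDT::5'truncatedNAC052 line, ABCB13 with a log2 fold change of -1.76 (edgeR adjusted p = 0.00984) and ABCB14 with -1.98 (1.20e-04).

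Of the auxin carriers of the family, ABCB21 was called against the reference, and ABCB4 lay at the fold limit. ABCB4, an auxin transporter of the root epidermis, had 7.04, 6.38 and 6.78 CPM in the reference, 12.7, 8.37 and 17.7 in the GLDT::5'truncatedNAC052 and 10.5, 14.3 and 15.5 in the GLDT::NAC052 libraries. The libraries of both transgenic lines lay above the reference. The difference was just inside the fold limit with the whole (log2 fold change 1.00, SE 0.25, edgeR adjusted p = 0.00818) and with the shortened coding region (log2 fold change 0.94, SE 0.25, edgeR adjusted p = 0.0441). Over the alternatives the log2 fold change was 0.89 to 1.15 with the whole coding region, on both sides of the limit, and 0.64 to 1.18 with the shortened one, the latter with an adjusted p of 0.00732 to 0.157. ABCB4 was called lower in the CRISPR/Cas line than in the GLDT::NAC052 line (log2 fold change -1.09, SE 0.25, edgeR adjusted p = 0.00345) and the GLDT::5'truncatedNAC052 line (log2 fold change -1.04, SE 0.25, edgeR adjusted p = 0.00785). The fold fell inside the limit in both without CRISPR/Cas replicate 2 (-0.96 and -0.90), in the first without GLDT::NAC052 replicate 3 (-0.99) and in the second without CRISPR/Cas replicate 1 (-0.9964), without GLDT::5'truncatedNAC052 replicate 3 (-0.74) and with library totals (-0.96). ABCB21, a related auxin carrier (AT3G62150, chr3:23008653-23014030 on the minus strand), had 41.2, 20.7 and 28.6 CPM in the reference and 16.4, 11.3 and 10.4 in the GLDT::5'truncatedNAC052 libraries, all below the reference. It fell in that line (log2 fold change -1.25, SE 0.25, edgeR adjusted p = 0.0132), and by less than the fold limit in the CRISPR/Cas (log2 fold change -0.87, SE 0.24, edgeR adjusted p = 0.0195) and the GLDT::NAC052 line (log2 fold change -0.89, SE 0.24, edgeR adjusted p = 0.0122), whose adjusted p reached 0.0949 and 0.0704 over the alternatives. The GLDT::5'truncatedNAC052 call rested on reference replicate 1, the highest library, and ended without it (-0.95, adjusted p = 0.0553, with 6.18e-05 to 0.0747 over all alternatives) and in a fit of only these 6 libraries. ABCB19, which exports auxin along the stem, had 135 ± 16.7 CPM (SD, n = 3) in the reference and 84.1 ± 7.43 in the CRISPR/Cas line, a fall inside the fold limit (log2 fold change -0.68, SE 0.12, edgeR adjusted p = 0.00191). ABCB1, its partner in auxin export, was slightly higher than the reference in the activation-tagged line (log2 fold change 0.33, SE 0.08, edgeR adjusted p = 0.0343), the GLDT::5'truncatedNAC052 line (log2 fold change 0.30, SE 0.08, edgeR adjusted p = 0.0375) and the GLDT::NAC052 line (log2 fold change 0.26, SE 0.08, edgeR adjusted p = 0.0167), with adjusted p up to 0.163, 0.158 and 0.0786 over the alternatives.

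**Figure D4:**
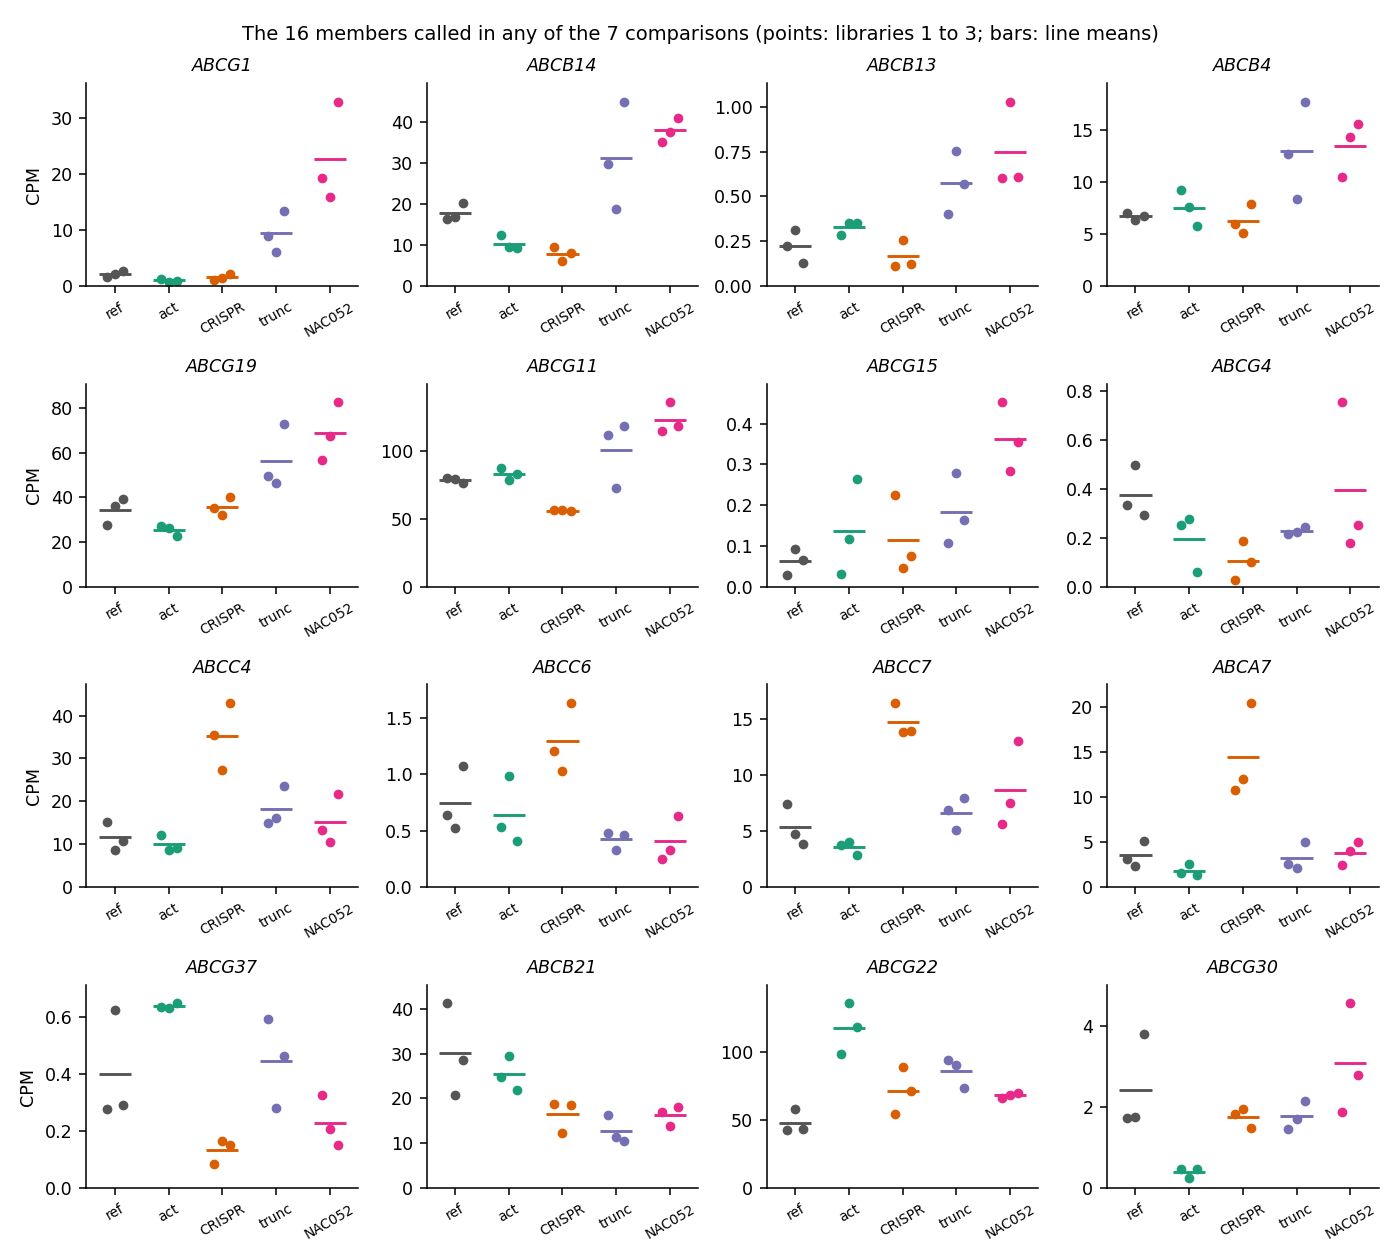
CPM in each library (y axes) of the 16 members called with the 2-fold limit in any of the 7 comparisons, 1 panel per member and 1 point per library, grouped by line. The GLDT::NAC052 libraries stand highest for ABCG1, and the CRISPR/Cas libraries stand highest for ABCA7, ABCC4 and ABCC7.

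A pair of further ABCG members rose in the GLDT::NAC052 line. ABCG19 (AT3G55130, chr3:20433839-20436453 on the minus strand), a vacuolar transporter known for kanamycin tolerance, had 27.5, 36.3 and 39.2 CPM in the reference, 49.6, 46.6 and 72.9 in the GLDT::5'truncatedNAC052 and 56.8, 67.4 and 82.6 in the GLDT::NAC052 libraries, and the libraries of both transgenic lines lay above the reference. The GLDT::NAC052 fold was just past the limit (log2 fold change 1.01, SE 0.18, edgeR adjusted p = 0.0011) and fell inside it without reference replicate 1 (0.87) or GLDT::NAC052 replicate 3 (0.87), with an adjusted p of at most 0.00774 throughout. ABCG15 (AT3G21090, chr3:7391286-7395096 on the minus strand) was near the limit of detection, where the reference libraries held 1, 3 and 2 counts and the GLDT::NAC052 libraries 18, 11 and 14. The summed counts of 43 and 6, scaled by library size, gave a ratio of 6.01 with a 95% counting interval of 2.55 to 17.3, and edgeR an adjusted p of 0.0182. Without reference replicate 1 the adjusted p was 0.0726 (range over the alternatives 0.0136 to 0.0726).

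Members that serve the leaf cuticle differed by smaller folds. ABCG11, a plasma membrane exporter of cutin and wax precursors, had 80.4, 79.6 and 76.9 CPM in the reference, 56.5, 56.6 and 55.6 in the CRISPR/Cas and 115, 136 and 119 in the GLDT::NAC052 libraries, with no overlap between any pair of these lines. It was higher than the reference in the GLDT::NAC052 line (log2 fold change 0.64, SE 0.14, edgeR adjusted p = 0.00309) and lower in the CRISPR/Cas line (log2 fold change -0.49, SE 0.14, edgeR adjusted p = 0.0205), in the latter with an adjusted p of 0.00128 to 0.14 over the alternatives. The CRISPR/Cas line was past the fold limit below the GLDT::NAC052 line (log2 fold change -1.13, SE 0.14, edgeR adjusted p = 3.06e-05). ABCG11 shares 596 bases with STR8 on the other strand, which was higher by 1.75 on the log2 scale in the same contrast, and the strand setting of the counting is not stated. ABCG12, the wax exporter that pairs with ABCG11, had 104, 114 and 109 CPM in the CRISPR/Cas against 141, 156 and 149 in the reference libraries (log2 fold change -0.45, SE 0.13, edgeR adjusted p = 0.0229), with an adjusted p of 0.00286 to 0.131 over the alternatives. ABCG32, a full-size cutin precursor exporter, was lower than the reference in both the CRISPR/Cas (log2 fold change -0.34, SE 0.09, edgeR adjusted p = 0.0181) and the GLDT::NAC052 line (log2 fold change -0.36, SE 0.09, edgeR adjusted p = 0.00881), reaching adjusted p of 0.134 and 0.0508 in the weakest alternative. For all 3 genes the difference between the CRISPR/Cas and the reference line missed the threshold with library totals as the scaling. ABCG5, needed for the cuticle of seedlings, had 9.40 ± 2.11 CPM (SD, n = 3) in the reference and was not called in any comparison. Of 15 tested genes of suberin and cutin synthesis on a list outside the family, 5 were called higher in the GLDT::NAC052 line (CYP86A2, CYP86A4, GPAT4, KCS1 and KCS2) and none lower, with a median log2 fold change of 0.52, where 5.36% of all genes were called higher and 2.85% lower. With no limit on the fold, 8 were higher and 1 lower there (background 17.0 and 17.3%), and 6 were lower and 0 higher in the CRISPR/Cas line (background 12.8 and 11.0%). In the CRISPR/Cas line 1 was called lower (KCS2) and none higher, with a median of -0.35 (background 3.44 and 3.30%), and the activation-tagged line had 1 lower (CYP86A4) and the GLDT::5'truncatedNAC052 line 1 higher (KCS2). KCS2, which elongates fatty acids for suberin and wax, was higher in the GLDT::NAC052 (log2 fold change 1.95, edgeR adjusted p = 0.00873) and the GLDT::5'truncatedNAC052 line (log2 fold change 1.98, edgeR adjusted p = 0.0366). It was lower in the CRISPR/Cas line (log2 fold change -1.72, edgeR adjusted p = 0.0422). The study listed KCS2 from these same libraries as higher in both transgenic lines, so its direction there is not independent evidence. In the CRISPR/Cas line the study placed KCS2 within its 2-fold limits, unlike the call here. The list counts given above include KCS2.

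In the CRISPR/Cas line 2 members of the ABCC subfamily were called higher, ABCC4 and ABCC7. ABCC4, which acts in guard cells (AT2G47800, chr2:19574666-19580615 on the plus strand), had 15.2, 8.78 and 10.9 CPM in the reference and 35.5, 27.4 and 43.0 in the CRISPR/Cas libraries. ABCC7 (AT3G13100, chr3:4208729-4214530 on the minus strand) had 7.43, 4.73 and 3.86 and 16.4, 13.8 and 13.9 CPM. For both genes all CRISPR/Cas libraries lay above the reference. ABCC4 rose 3.03 times (log2 fold change 1.60, SE 0.28, edgeR adjusted p = 0.00144) and ABCC7 2.75 times (log2 fold change 1.46, SE 0.29, edgeR adjusted p = 0.00348). ABCC7 shares 132 bases on the same strand with SAT3, so reads there cannot be assigned. SAT3 had a log2 fold change of -0.19 in the same comparison (edgeR adjusted p = 0.351). ABCC3, a vacuolar transporter of glutathione conjugates and chlorophyll breakdown products, had 55.8, 33.7 and 38.2 and 87.1, 67 and 98.0 CPM, just inside the fold limit (log2 fold change 0.98, SE 0.24, edgeR adjusted p = 0.0112), with an adjusted p of 0.0528 without reference replicate 2 and 6.48e-04 to 0.0528 over all alternatives. ABCC1, which carries phytochelatins and folates into the vacuole, was higher by a small fold (log2 fold change 0.40, SE 0.09, edgeR adjusted p = 0.00639). These are 4 of 11 tested ABCC members higher at an adjusted p under 0.05 and 0 lower (4 and 1 by DESeq2), where 11.0% of all genes were higher and 12.8% lower. ABCC14, the most abundant ABCC member per length, was among those not called (log2 fold change -0.49, SE 0.18, edgeR adjusted p = 0.0574). Of the 4 senescence markers, SAG13 had a mean of 56.6 CPM in the CRISPR/Cas against 2.03 in the reference line. The row named SEN1 had 3.67 against 2.90 CPM, ORE1 (listed as NAC92) 0.906 against 1.19, and SAG12 no counts. The study lists the senescence gene SEN1 as past 2-fold higher in both lines with a GLDT transgene. The SEN1 row had means of 2.48 (GLDT::5'truncatedNAC052) and 2.87 CPM (GLDT::NAC052), without such a rise. It was matched by name alone and may be another gene. The part of senescence in the rise of the ABCC members was not tested.

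ABCA7 gave the largest rise in the CRISPR/Cas line (AT3G47780, chr3:17624340-17629285 on the plus strand). It had 3.11, 2.33 and 5.16 CPM in the reference and 10.8, 12.0 and 20.4 in the CRISPR/Cas libraries, 4.08 times as much (log2 fold change 2.03, SE 0.39, edgeR adjusted p = 0.00283). Every CRISPR/Cas library lay above every library of the other 4 lines, where ABCA7 ran from 1.32 to 5.16 CPM. ABCG37, which exports auxin precursors and phenolics from roots, had 10, 20 and 9 counts in the reference and 3, 7 and 6 in the CRISPR/Cas libraries. It was called lower (log2 fold change -1.53, SE 0.49, edgeR adjusted p = 0.0341), but the call ended under 7 of 13 alternatives, with adjusted p from 0.0342 to 0.172: in limma voom, with the replicate block, in a fit of only these 6 libraries, without reference replicate 2 and without each CRISPR/Cas library. Against the GLDT::5'truncatedNAC052 line it was lower as well (log2 fold change -1.70, SE 0.48, edgeR adjusted p = 0.0168), and this call ended without CRISPR/Cas replicate 1 (-1.47, adjusted p = 0.065) or GLDT::5'truncatedNAC052 replicate 1 (-1.44, adjusted p = 0.0698), the range being 0.0132 to 0.0698. Among the 11 tested auxin carriers outside the family, LAX2, an auxin importer of the vasculature, was called lower in the CRISPR/Cas line (log2 fold change -1.21, edgeR adjusted p = 4.45e-04) and 6 were lower and 0 higher at an adjusted p under 0.05, where 12.8% of all genes were lower and 11.0% higher. In the GLDT::NAC052 line PIN5 was called lower (log2 fold change -2.41, edgeR adjusted p = 0.0095), and 3 were lower and 1 higher without the fold limit (background 17.3 and 17.0%). The 3 xylem markers summed to 20.5 to 34.3 CPM in the CRISPR/Cas against 87.2 to 100.2 in the reference libraries, and their part was not tested.

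In the activation-tagged line 2 members of roles around abscisic acid and stomata were called. ABCG22, required for stomatal regulation (AT5G06530, chr5:1989650-1994961 on the minus strand), had 42.8, 57.8 and 43.7 CPM in the reference and 98.8, 136 and 119 in the activation-tagged libraries, all above the reference. It rose 2.45 times (log2 fold change 1.29, SE 0.17, edgeR adjusted p = 0.0023). It was the one member past an adjusted p of 0.05 in all 4 lines, always higher, with log2 fold changes of 0.57 (adjusted p up to 0.133 over the alternatives) in the CRISPR/Cas, 0.84 (0.0719) in the GLDT::5'truncatedNAC052 and 0.51 (0.12) in the GLDT::NAC052 line. All 4 comparisons rest on the same reference libraries, and every library of the other lines lay above them except CRISPR/Cas replicate 1, at 54.2 CPM. ABCG30, an abscisic acid importer of the seed (AT4G15230, chr4:8679754-8687519 on the plus strand), had 1.72, 1.74 and 3.80 CPM in the reference and 0.475, 0.236 and 0.470 in the activation-tagged libraries, all below the reference. It fell to 0.167 times the reference (log2 fold change -2.58, SE 0.43, edgeR adjusted p = 0.00637), on 6 to 16 counts per library. ABCG30 shares 166 exon bases on the same strand with its neighbour ABCG42, so reads there cannot be assigned, and ABCG42 had a log2 fold change of -0.90 in the same comparison (edgeR adjusted p = 0.187). The guard cell markers summed to 28.2 to 33.8 CPM in the activation-tagged against 40.6 to 43.4 in the reference libraries. ABCF5, 1 of the most abundant members, had 433, 557 and 520.2 CPM in this line and 267, 312 and 324 in the reference, with no overlap, inside the fold limit (log2 fold change 0.74, SE 0.17, edgeR adjusted p = 0.0309) and with an adjusted p of 0.00146 to 0.12 over the alternatives. Other members tied to abscisic acid were not called: ABCG25, which exports it from vascular cells, had 6.28 ± 0.377 CPM in the reference and 7.21 ± 1.09 in the activation-tagged line, and ABCG40, which imports it into guard cells, 2.90 ± 0.244 and 2.34 ± 0.689 (SD, n = 3).

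Among the lane 8 lines, 8 members were called between the CRISPR/Cas and the GLDT::5'truncatedNAC052 line, 3 higher and 5 lower in the former, where 8.08% of all genes were called, 3.40% higher and 4.68% lower. Between the CRISPR/Cas and the GLDT::NAC052 line 9 were called, 3 higher and 6 lower, against 12.9%, 5.21% higher and 7.69% lower. Between the 2 transgenic lines 1 was called, ABCG1, higher with the whole coding region, against 1.75%, 1.49% higher and 0.270% lower. The first 2 comparisons share the CRISPR/Cas libraries. ABCC6, the neighbour of ABCC7, appeared only here among the calls. It had 1.21, 1.03 and 1.63 CPM in the CRISPR/Cas, 0.484, 0.335 and 0.462 in the GLDT::5'truncatedNAC052 and 0.252, 0.334 and 0.634 in the GLDT::NAC052 libraries. The CRISPR/Cas libraries were above the shortened (log2 fold change 1.59, SE 0.42, edgeR adjusted p = 0.0124) and the whole transgene (log2 fold change 1.66, SE 0.42, edgeR adjusted p = 0.00614), while the reference libraries, at 0.638, 0.529 and 1.07 CPM, overlapped them (log2 fold change 0.79, SE 0.41, edgeR adjusted p = 0.169). ABCA7 stood 2.15 and 1.91 higher on the log2 scale in the CRISPR/Cas line than in the lines with the shortened and the whole coding region (edgeR adjusted p = 0.00131 and 0.00146). ABCG1 stood lower, with log2 fold changes of -2.55 and -3.80 (edgeR adjusted p = 2.00e-04 and 4.53e-06). ABCC4 was past the limit against the GLDT::NAC052 line (log2 fold change 1.21, SE 0.27, edgeR adjusted p = 0.00298) and inside it against the GLDT::5'truncatedNAC052 line (log2 fold change 0.96, SE 0.27, edgeR adjusted p = 0.0179), the latter with an adjusted p of 0.00273 to 0.0741 over the alternatives. For ABCC7 the order was the reverse, with 1.15 against the GLDT::5'truncatedNAC052 line (edgeR adjusted p = 0.00927) and 0.76 against the GLDT::NAC052 line (0.0458, range over the alternatives 0.00418 to 0.165). The former was 0.99, inside the fold limit, without GLDT::5'truncatedNAC052 replicate 2. SAT3, which shares bases with ABCC7 on the same strand, had -0.15 (edgeR adjusted p = 0.47) and -0.74 (8.79e-04) in these comparisons. Its part in the ABCC7 values was not tested. ABCG4 was called lower in the CRISPR/Cas than in the GLDT::NAC052 line on 1 to 8 counts against 7 to 30, with overlapping libraries (log2 fold change -1.84, SE 0.69, edgeR adjusted p = 0.0435). That call ended under 8 of 13 alternatives (adjusted p 0.0241 to 0.286), among them limma voom, no filter on low counts and library totals, and without CRISPR/Cas replicate 1 or 3 or GLDT::NAC052 replicate 1, the highest library.

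With no limit on the fold, 41 of the 81 tested members differed from the reference at an adjusted p under 0.05 in at least 1 line and 40 in none. Of the 41, 28 did so in 1 line, 10 in 2, 2 in 3 and 1 in all 4. The activation-tagged line had 3 higher and 2 lower (background 3.65%, 1.90% higher and 1.74% lower), and the CRISPR/Cas mutant 10 and 9 (background 23.8%, 11.0% higher and 12.8% lower). Of the transgenic lines, the shortened construct gave 6 higher and 1 lower (background 5.83%, 2.80% higher and 3.03% lower), and the whole construct 17 and 10 (background 34.3%, 17.0% higher and 17.3% lower). Within lane 8 the CRISPR/Cas mutant gave 8 higher and 16 lower than the GLDT::5'truncatedNAC052 line (background 28.6%, 13.2% higher and 15.4% lower), and 15 higher and 18 lower than the GLDT::NAC052 line (background 41.4%, 20.5% higher and 20.9% lower). Against each other, the GLDT::NAC052 line showed 2 higher and 3 lower than the GLDT::5'truncatedNAC052 line (background 8.54%, 4.77% higher and 3.78% lower). With library totals as the scaling, which moved the median of all genes by -0.11, 0.19, 0.09 and 0.11 on the log2 scale, the 4 counts against the reference became 2 and 4, 15 and 5, 10 and 1, and 17 and 6. Small differences therefore changed direction counts with the scaling. ABCB14, ABCG11 and ABCG3 were higher in 1 line and lower in another. ABCG3 had 16.1, 16.5 and 15.8 CPM in the reference, 22.5, 22.9 and 19.6 in the CRISPR/Cas and 12.8, 13.3 and 10.4 in the GLDT::NAC052 libraries, with no overlap (log2 fold change 0.42, SE 0.11, edgeR adjusted p = 0.0141) and (log2 fold change -0.41, SE 0.11, edgeR adjusted p = 0.0113). Both of these ended in some alternatives, with adjusted p of up to 0.06 and 0.06.

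Of the 10 tested ABCI members, 4 were lower and 1 higher with the whole transgene at an adjusted p under 0.05 (3 lower and 1 higher with library totals), against 17.3% lower and 17.0% higher among all genes. ABCI7 (SufD), the partner of ABCI8 and ABCI6 in plastid iron-sulfur assembly, had 86.2, 80.2 and 80.0 CPM in the reference and 57.1, 65.4 and 53.3 in the GLDT::NAC052 libraries (log2 fold change -0.49, SE 0.10, edgeR adjusted p = 0.00259). ABCI11 and ABCI12 fell by similar amounts, with log2 fold changes of -0.62 and -0.66 (edgeR adjusted p = 0.00186 and 0.00843). ABCI17 fell less (log2 fold change -0.45, SE 0.12, edgeR adjusted p = 0.0112), and ABCI19, at about 1 CPM, was higher (log2 fold change 0.78, SE 0.28, edgeR adjusted p = 0.0419). The last 2 ended in some alternatives, ABCI17 with library totals (0.0546) and ABCI19 in 6 of 13 (adjusted p 0.0168 to 0.157). ABCI8 itself had 106, 125 and 95.2 CPM against 119.9, 126 and 79.2 in the reference libraries, with overlap (log2 fold change 0.00, SE 0.16, edgeR adjusted p = 0.993). ABCI6 was not called in this line (log2 fold change -0.17, SE 0.07, edgeR adjusted p = 0.0742). Of 8 tested plastid iron-sulfur partners outside the family, SUFE1, which activates the cysteine desulfurase, was called lower in the GLDT::NAC052 line (log2 fold change -4.46, edgeR adjusted p = 0.0303) and none higher.

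Several abundant members and members with housekeeping roles were not called with the fold limit against the reference, though some came near it. ABCG36 ran from 720.1 to 1241 CPM over the 15 libraries, and the lines overlapped, with log2 fold changes against the reference of -0.22, 0.00, -0.29 and -0.23 for activation tagging, the CRISPR/Cas mutation, the shortened and the whole transgene, and none called. ABCE2 had 81.8 ± 7.78 CPM in the reference and 97.3 ± 3.56 in the GLDT::NAC052 line (SD, n = 3; log2 fold change 0.25, SE 0.08, edgeR adjusted p = 0.0335), with an adjusted p of 0.00957 to 0.124 over the alternatives. ABCF3, related to the yeast translation regulator GCN20, ran from 46.8 to 56.8 CPM and was not called in any comparison. ABCB25, a mitochondrial exporter used for iron-sulfur and molybdenum cofactor synthesis, ran from 35.2 to 46.5 CPM and was not called either. ABCC5, which loads inositol hexakisphosphate into vacuoles, was higher in the GLDT::NAC052 line, at 64.8, 64.6 and 76.2 CPM against 32.6, 34.3 and 41.1, with no overlap and just inside the fold limit (log2 fold change 0.93, SE 0.11, edgeR adjusted p = 7.02e-05). ABCF1 was higher there as well (log2 fold change 0.94, SE 0.22, edgeR adjusted p = 0.00543), at 63.6, 63.5 and 108 CPM against 41.8, 40.2 and 40.4. ABCA1 was lower (log2 fold change -0.55, SE 0.10, edgeR adjusted p = 0.00116), at 31.3, 27.9 and 31.1 CPM against 44.6, 46.4 and 41.2. ABCB27, linked to aluminium tolerance, was slightly higher in the CRISPR/Cas line (log2 fold change 0.35, SE 0.10, edgeR adjusted p = 0.0249), with an adjusted p of 0.00527 to 0.0915 over the alternatives. ABCG14, the root-to-shoot cytokinin exporter, had 2.52 ± 0.406 CPM in the reference and was not called in any line. Its GLDT::NAC052 libraries, at 1.21, 1.72 and 1.40 CPM, lay below all reference libraries. The activation-tagged libraries, at 3.32, 3.34 and 3.26 CPM, lay above them.

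Of the 17 tested ABC genes listed under another name, none was called with the 2-fold limit in any comparison by edgeR, while at an adjusted p under 0.05 in the CRISPR/Cas line 4 were higher and 1 lower (background 11.0 and 12.8%) and with the whole transgene 4 were higher and 5 lower (background 17.0 and 17.3%). The plastid lipid import subunit TGD1 (ABCI14) had -0.55 in the GLDT::NAC052 line (edgeR adjusted p = 8.46e-04). None of the 3 tested plastid lipid import partners and neither of the 2 tested phytochelatin and glutathione genes was called with the limit. For these 2 lists, at an adjusted p under 0.05, 1 import partner was higher in the GLDT::NAC052 line and 1 glutathione or phytochelatin gene was lower in each transgenic line.

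Many members lie side by side in the genome, and neighbours did not always move together. With gaps of at most 10000 bases, 32 of the 107 members formed 10 runs. The longest held the 7 genes ABCA2 to ABCA8 on chromosome 3, of which 3 were tested. ABCA7 rose in the CRISPR/Cas line by 2.03 on the log2 scale, where ABCA2 had -0.06 and ABCA4 -0.58. The neighbours ABCC3, ABCC6 and ABCC7 on chromosome 3 had 0.98, 0.79 and 1.46 in the CRISPR/Cas line, all on the same side. In the run ABCG16 to ABCG19, ABCG19 had 1.01 in the GLDT::NAC052 line, ABCG18 0.70 (edgeR adjusted p = 0.185) and ABCG16 -0.07. In the run of ABCG41, ABCG30 and ABCG42 on chromosome 4 the activation-tagged line gave -0.22, -2.58 and -0.90, of which ABCG30 was called. In all, 11 members share at least 1 window of 100 exon bases with another ABC gene, 25 overlap another gene and 22 overlap 1 on the other strand, which limits how far their counts can be assigned.

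**Figure D5:**
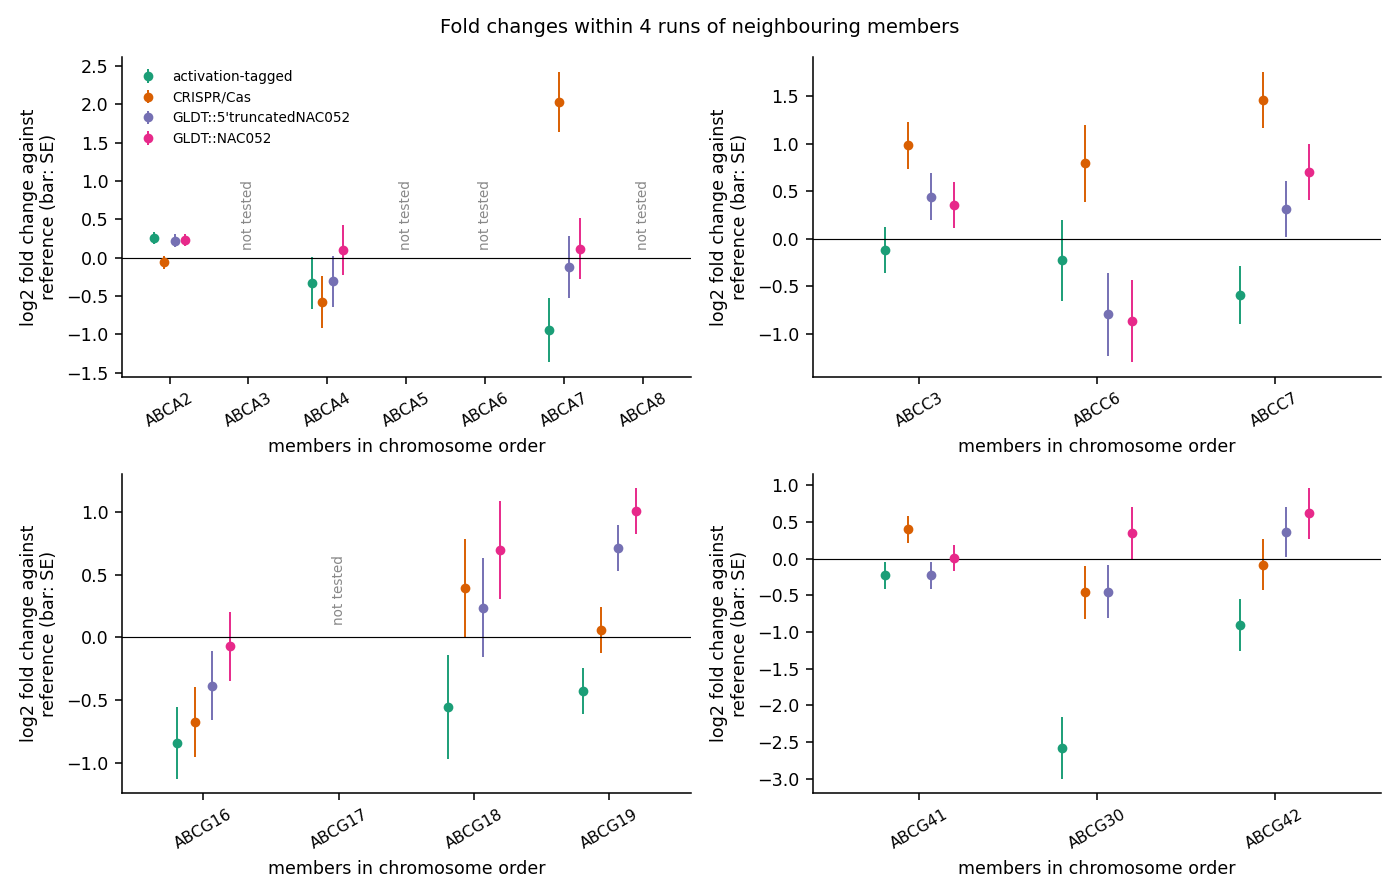
Log2 fold change against the reference line (y axis) of the members in 4 runs of neighbouring genes, in genome order (x axis), 1 colour per line. ABCA7 stands above its neighbours in the CRISPR/Cas line, while ABCC3, ABCC6 and ABCC7 lie on the same side of 0 there.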

How the data were processed

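Messenger RNA of complete rosettes was sequenced as stranded single-end libraries, 15 in all. The authors trimmed the reads and used CLC Genomics Workbench to map them to TAIR10, and the deposited values are whole-number read counts per gene without normalization. Whether the counting used strand is not stated in the sources used here, so counts of overlapping genes are uncertain. A further 6 columns that match no described sample were not used. Library totals ran from 28074380 to 38579309 (median 36691617), and each gene's precision is set by its counts, with 3 counts as the floor and intervals that cover counting error only.

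Counts were scaled by TMM and tested with edgeR 4.0.16 (glmQLFit and glmQLFTest, R 4.3.3) in 1 model of the 15 libraries, with line as the factor, on the 19663 genes that passed filterByExpr (10 counts for a library of median size, in 3 or more libraries, and 15 in total). P-values were adjusted by Benjamini-Hochberg over all of them. SE are approximate, from the F statistic. DESeq2 1.42.0, limma 3.58.1 (voom), 2 other scalings, 2 other filters, a replicate block, fits of the 6 libraries compared, no fold limit and leaving out each library were alternatives. On simulated counts for 19442 genes the procedure recovered 93.9 to 94.9% of 3-fold changes with 2 to 7 false calls in each of the 4 comparisons with the reference. The simulation gave every gene the same dispersion of 0.05, so these rates do not describe members that vary more between libraries. Exon lengths, overlaps and promoters came from the TAIR10.1 annotation (pandas 2.3.3, scipy 1.17.1). Members were named when called against the reference, when in the ABCG1 clade, when the highest of their subfamily per length, or when on a list of known roles, and others were chosen after their values were seen. The members and lists were chosen with earlier results of these data known. Names follow the table, in which ABCC2 appears as 2 rows whose identifiers belong to ABCC2 and ABCD2 in TAIR10.1.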

Additional observations from a re-analysis of the deposited data

How the results depend on the processing

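Of the 32 calls with the 2-fold limit over the 7 comparisons, 21 were kept under every alternative and 26 kept an adjusted p under 0.05 under every one. Over 5338 values of single members under alternatives, 240 lost the threshold, 58 gained it and none changed direction while called. From the 3 comparisons among the lane 8 lines, only members with an adjusted p under 0.05 in the main fit were entered. A gain was therefore not possible there, and losses and gains cannot be weighed against each other. Without the fold limit the counts of members called were 27 (GLDT::NAC052), 19 (CRISPR/Cas), 7 (GLDT::5'truncatedNAC052) and 5 (activation-tagged) against the reference, 24 and 33 for the CRISPR/Cas line against the shortened and the whole transgene, and 5 between the transgenic lines. The GLDT::5'truncatedNAC052 count of 2 was 1 in a fit of only its 6 libraries and 1 to 4 without single libraries. The GLDT::NAC052 count of 5 was 8 with library totals, 3 with a mean of at least 50 counts (fewer genes tested) and 4 to 8 without single libraries. The CRISPR/Cas minus GLDT::5'truncatedNAC052 count of 8 was 5 with a mean of at least 50 counts. Between the transgenic lines the count of 1 was 0 in an edgeR fit of only 6 libraries and 0 to 1 without single libraries, where 15 members had an unadjusted p under 0.05 in the fit of all libraries and DESeq2 and limma voom gave 1. Apart from the smaller set of genes, the cause of these changes was not tested. The detected members were 81 by the filter, 98 by any count and 69 by a mean of 1 CPM. Library totals alone raised the share of higher calls among all genes from 48.9 to 64.8% (CRISPR/Cas), 65.9 to 79.0% (GLDT::5'truncatedNAC052) and 65.2 to 78.0% (GLDT::NAC052), and from 42.1 to 52.9% for the CRISPR/Cas against the GLDT::5'truncatedNAC052 line, and lowered it from 25.8 to 17.5% in the activation-tagged line. Same-numbered replicates of different lines deviated together in 12 of 30 pairs (r above 0.1, mean 0.0581, range -0.399 to 0.586). For differently numbered replicates it was 18 of 60 pairs (mean -0.0282, range -0.442 to 0.391). Between the transgenic lines the same-numbered pairs had r of 0.206, 0.201 and 0.586, and the differently numbered ones ran from -0.442 to 0.371. The numbers were not taken as pairs in the main fit. With the replicate block the counts were 2, 4, 2 and 5 against the reference, 8 and 8 for the CRISPR/Cas line against the shortened and the whole transgene, and 1 between the transgenic lines. Depth limits members with few counts, such as ABCG15, ABCG4 and ABCG37.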

Other observations

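Replicate 3 of both transgenic lines held several members above the other replicates. Among the 81 tested members, 13 in the GLDT::5'truncatedNAC052 and 12 in the GLDT::NAC052 line were over 1.5 times the mean of replicates 1 and 2 in replicate 3, with 8 members in both (ABCA7, ABCB11, ABCC4, ABCC11, ABCF1, ABCG1, ABCG40 and ABCG42). The same count was 9 in the reference, 7 in the CRISPR/Cas and 5 in the activation-tagged line. The comparison was chosen after the values were seen and was not tested. The share of all tested genes past the same ratio was not computed, so the counts cannot be read as particular to the family. Over all tested genes, replicate 3 of the GLDT::5'truncatedNAC052 and of the GLDT::NAC052 line deviated together from their line means (r = 0.586).

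ABCG40, which imports abscisic acid into guard cells, was the widest of these, with 3.06, 2.73 and 8.10 CPM in the GLDT::5'truncatedNAC052 and 2.21, 3.42 and 17.8 in the GLDT::NAC052 libraries, and it was not called in either line. In the CRISPR/Cas line its 3 libraries were close together at 7.80, 6.77 and 6.96 CPM, above 3.13, 2.65 and 2.92 in the reference (log2 fold change 1.3, SE 0.62, edgeR adjusted p = 0.14). ABCF1 had 44.7, 39.9 and 75.9 and 63.6, 63.5 and 108 CPM in the 2 transgenic lines, and ABCC11 had 26.2, 22.8 and 49.0 and 28.1, 29.7 and 47.8. NAC052 itself did not follow this order, since its highest library was replicate 2 in the first line and replicate 1 in the second.

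ABCC15 had the widest spread of line means among tested members without a call. It had 2, 0 and 0 counts in the activation-tagged, 3, 17 and 5 in the reference and 28, 14 and 15 in the GLDT::NAC052 libraries, and shares exon windows with ABCC9, so that its counts are uncertain.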
